A study of Homo sapiens with 6 samples.

Results

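The genes described are 10 that encode human cleavage and polyadenylation factors: PCF11, CSTF1, CSTF2, CSTF3, CPSF1, CPSF2, CPSF3, CPSF4, FIP1L1 and NUDT21. They were taken by gene name from an exon annotation deposited for U-87 MG, a long-established line of human glioma cells. All 10 were listed among its 13721 gene names, of which 12462 had at least 1 intron. The cells were grown for 72 h with DMSO, the vehicle, at 10 ul per 10 ml of medium (3 libraries) or with 10 uM EPZ015666, which inhibits PRMT5, an arginine methyltransferase (3 libraries), and poly(A)-selected RNA was sequenced. The annotation is 1 list for both groups, in hg19 coordinates, and holds no value per library. It therefore gives the exons, introns and ends of these genes but no level, depth or replicate error, and the 2 treatments could not be compared. By its name the annotation includes consensus coding isoforms. Whether a listed end was seen in these cells or taken from a reference was not tested. A match of a listed end to the reference is therefore a description and no independent support.

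An mRNA acquires its 3′ end when the nascent transcript is cut and a poly(A) tail is added at the cut. CPSF, the cleavage and polyadenylation specificity factor, binds the AAUAAA signal upstream of the cut and contains the endonuclease. CstF, the cleavage stimulation factor, binds the GU-rich element downstream of it. FIP1L1 joins CPSF to the poly(A) polymerase, NUDT21 is the smaller subunit of cleavage factor I, which binds UGUA elements upstream, and PCF11 belongs to cleavage factor II and also acts in termination by RNA polymerase II. A signal inside an intron can be used before the intron is spliced, which gives a short mRNA. Such early ends are known in PCF11 and CSTF3 and are described as a way in which these factors limit their own full-length mRNA.

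An early end was listed for 3 of the 10 genes, and 2 of these lay inside an intron. Here a final exon is the last exon of a listed isoform, told apart by its acceptor, the 5′ edge at which it is spliced in. An early end is a final exon that stops before the acceptor of the most distal one. CSTF3 ended in intron 4, FIP1L1 ended in intron 13, and PCF11 ended inside its exon 8 rather than in an intron. Over all listed genes with introns 16.7% had an early end (2078 of 12462), and the count of 3 of 10 genes is given as a description beside that share. An end that extends an internal exon into the next intron, the form seen in CSTF3 and FIP1L1, was listed for 13.4% of genes. An end inside an internal exon, short of that exon's own end as in PCF11, was listed for 2.65%.

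Sequences at these early ends are shown from GENCODE v29 transcripts, a GRCh38 annotation, because they show what an mRNA with the listed acceptor would contain. CSTF3-203 shares the listed acceptor but ends 500 bases beyond the listed end. The first sequence is the final exon of CSTF3-203 from its acceptor to its stop codon. The second is a 30-base stretch further along the same exon, and the last one the final 78 bases of FIP1L1-207. Capitals in the first and the last run mark the bases beyond the internal exon, and in the middle run the polyadenylation hexamer.

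CSTF3-203, acceptor to stop: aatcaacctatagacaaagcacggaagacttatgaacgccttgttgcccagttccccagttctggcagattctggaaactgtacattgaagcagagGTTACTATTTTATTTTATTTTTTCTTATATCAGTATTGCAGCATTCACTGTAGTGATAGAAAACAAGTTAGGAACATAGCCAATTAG
CSTF3-203, hexamer site: tataaaggagtaATTAAAatgaatttttga
FIP1L1-207, last 78 bases: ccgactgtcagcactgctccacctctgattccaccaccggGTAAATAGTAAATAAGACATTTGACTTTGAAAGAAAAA

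In CSTF3-203 the reading frame ran 87 bases past the internal exon, stop codon included, which adds 28 codons before the stop. In FIP1L1 the stop codon was complete 8 bases past the exon, and 30 further bases followed to the end. The first 6 intron bases, which overlap the 5′ splice site, were GTTACT in CSTF3 and GTAAAT in FIP1L1. They matched the consensus GTAAGT at 4 of 6 positions in CSTF3 and at 5 of 6 in FIP1L1. The first 297 bases of the CSTF3-203 exon, the length listed for the early exon, held 1 copy of the 2 commonest hexamers AATAAA and ATTAAA on the transcribed strand. It was the ATTAAA shown, at base 242 and 50 bases before the listed end. The FIP1L1 exon of 195 bases held 0. Over 3′-complete coding transcripts of the reference, 65.7% held either hexamer in their last 297 bases and 63.1% in their last 195. A match of letters describes the window only.

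CSTF3 encodes the scaffold subunit of CstF that holds its other subunits together. It was listed on the minus strand at chr11:33106131-33183037, with 22 exons over 76907 bases. Its intron 4 was 33248 bases long (chr11:33129965-33163212), the longest of 21, while the median of the other introns was 882.5 bases. The early final exon (chr11:33163012-33163308) shared the acceptor of the 96-base exon 4 and was 297 bases long, so it reached 201 bases, or 0.605% of the way, into that intron. The short isoform contained 688 of the 2918 exonic bases of the full isoform (23.6%), and 18 exons lay beyond its end. The reference holds complete coding transcripts that stop in this intron. CSTF3-202 ended 202 bases past exon 4, 1 base from the listed end. Such a shift was common: 2274 last exons of minus-strand genes were 1 base shorter than in the reference and 365 equal. The difference is therefore not read as another end. The last exon of CSTF3-202, of 522 bases, began upstream of the exon 4 acceptor, and that transcript has 2 exons where the short isoform has 4. CSTF3-203 ended 701 bases past the exon, 500 bases beyond the listed end. The listing held 1 end in intron 4, within 1 base of the end of CSTF3-202. No reference transcript of CSTF3 had the listed acceptor and this end together.

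FIP1L1 was listed at chr4:54243971-54325835 on the plus strand, with 19 exons over 81865 bases. Its early final exon (chr4:54294194-54294388) was 195 bases long and extended the 157-base exon 13 by 38 bases. It entered an intron of 12398 bases (chr4:54294351-54306748), the 2nd longest of 18. The end lay 61.6% of the way along the gene, and the short isoform kept 1247 of 2066 exonic bases (60.4%), with 6 exons beyond its end. The reference transcript FIP1L1-207, complete and coding, had the same length of 195 bases from the acceptor. The early end of CSTF3 lay nearer the 5′ end, at 26.0% of its gene.

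Set beside all 2126 ends of this form, in 1664 genes, both extensions were short and both introns long. The median end reached 592 bases past its exon (interquartile range 235 to 1704) into an intron of median length 4390 bases. The extension of CSTF3 stood at percentile 21.0 and its intron at percentile 91.3. The extension of FIP1L1 stood at percentile 1.74 and its intron at percentile 77.3. Over all genes 466 of these ends (21.9%) lay in the longest intron of their gene, as in CSTF3. A complete reference transcript with equal lengths of last intron and last exon (within 1 base) was found for 1056 of 1931 ends compared (54.7%). FIP1L1 was among them through FIP1L1-207. CSTF3 was not, since CSTF3-202, which ends 1 base away, has a different last exon.

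**Figure D1:**
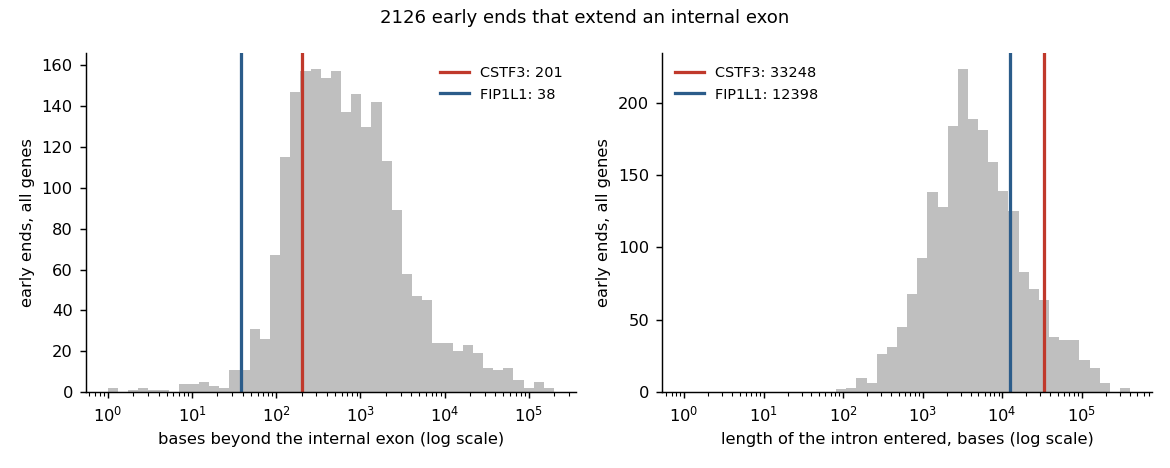
Histograms over all 2126 early ends that extend an internal exon: bases beyond the exon (left) and length of the intron entered (right), both on log axes, with the number of ends on the vertical axis. Lines mark CSTF3 (201 and 33248 bases) and FIP1L1 (38 and 12398 bases); FIP1L1 lies in the left tail of the first histogram.

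PCF11 was listed at chr11:82868138-82896564 on the plus strand, with 16 exons over 28427 bases. Its 3 listed isoforms held 2 distinct structures. Intron 1 was not entered by any of them, and all shared 1 first exon. The reference holds PCF11-207, a single-exon model of a type that awaits experimental support (TEC), which ends 1248 bases into intron 1 of 3695 bases. No listed end lay there. The distal last exon was 844 bases, against 2773 in PCF11-201. The early end listed was instead a final exon of 260 bases (chr11:82879470-82879729) that shared the acceptor of exon 8 and stopped 1308 bases before the end of that 1568-base exon. The short isoform held 2696 of 5640 exonic bases (47.8%), with 8 exons beyond its end. The end coincided with that of the reference transcript PCF11-203, which likewise stops 260 bases past the acceptor and is marked as incomplete at its 3′ end. PCF11-204 stops in the same exon at 511 bases and is marked in the same way. Such a mark means that the reference does not place the true end of the RNA there.

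The bases on either side of the PCF11 end are given because a hexamer stands near it. The upper run is the last 60 bases before the listed end and the lower run the next 30 bases of the same exon, with the hexamer in capitals.

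PCF11-203, before the end: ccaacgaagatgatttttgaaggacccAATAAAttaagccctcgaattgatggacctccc
PCF11-201, after the end: acaccagcttctcttcggtttgatgggtca

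The AATAAA began at base 228 and ended 27 bases before the listed end. It was the 1 copy of either hexamer in the whole 1568-base exon. Among 11393 distinct windows made of the first 260 bases of internal exons in reference coding transcripts, 639 (5.61%) held an AATAAA. This share counts AATAAA alone at the start of internal exons. The shares given for CSTF3 and FIP1L1 count either hexamer at transcript ends, so they cannot be compared with it. Ends inside an exon were listed 394 times in 330 genes. Of 354 that could be compared by lengths of last intron and last exon, 172 (48.6%) matched a complete reference transcript. A further 12 (3.39%), PCF11 among them, matched only one marked incomplete.

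**Figure D2:**
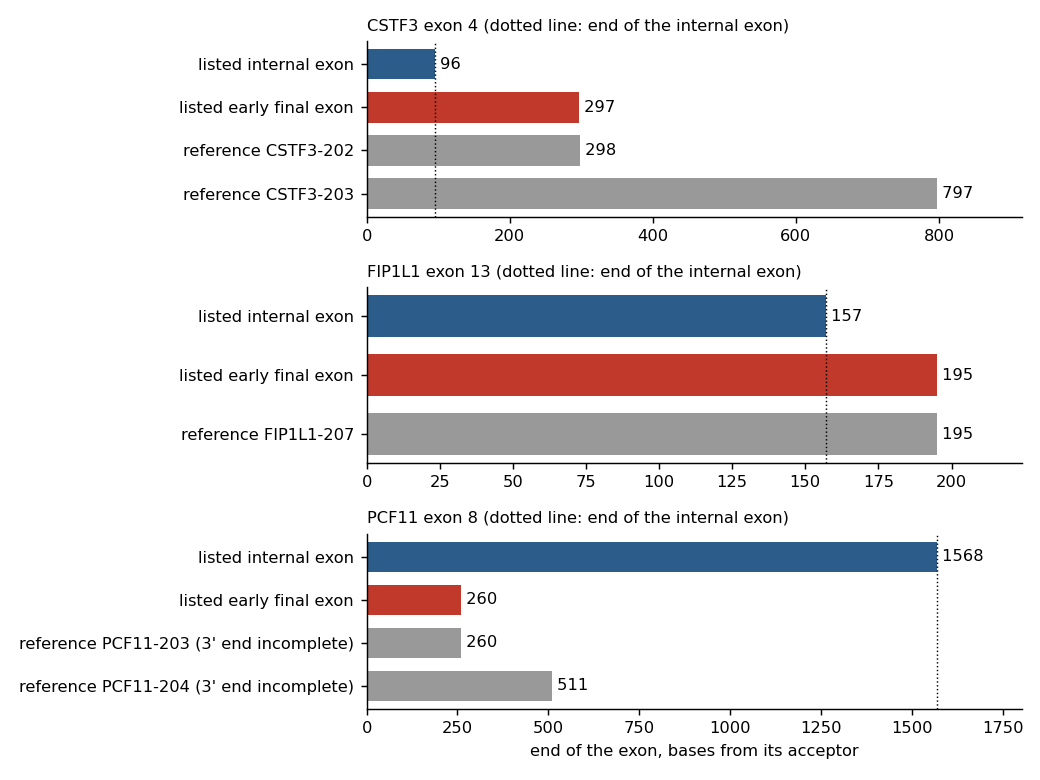
Horizontal bars give the end of each exon in bases from the acceptor of the internal exon, for that exon, the listed early final exon and the reference transcripts that stop nearby. CSTF3 (297 bases) and FIP1L1 (195 bases) pass the dotted line that marks the end of the internal exon; PCF11 (260 bases) stops well before it.

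All 3 early ends came from 1 form of row. In each, the last 2 rows of the short isoform overlapped: the internal exon came first, then a row with the same acceptor and another end. For CSTF3 and FIP1L1 the later row was the longer, and for PCF11 it was the shorter. Over all genes a longer last row at the same acceptor gave 2103 of 2126 exon extensions (98.9%), and a shorter one gave 377 of 394 ends inside an exon (95.7%). With the earlier of the overlapping rows kept, 0 of the 10 genes ended inside an intron rather than 2. The PCF11 end inside exon 8 was then also replaced, by the end of that exon. No other listed gene name overlapped the 3 early final exons or the introns that follow them (0 names).

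The remaining 7 genes had 1 final exon each and no early end. At least 2 final exons were listed for PCF11 (2), CSTF3 (2) and FIP1L1 (3), against 22.5% of all genes with introns. With ends told apart by acceptor and 3′ end together the genes with at least 2 remained 3 of 10, while the share of all genes rose to 38.6%, so the order of the 2 shares depends on this definition. No member had a separate final exon lying wholly inside an intron, a form listed for 2.25% of genes, nor a final exon running through an intron into the next exon, listed for 2.5%, nor an early end at the exon's own end, listed for 1.12%, nor an end of any other form, listed for 1.9%. Number of introns did not order them: CPSF1 with 38 introns, CPSF3 with 17 and CPSF2 with 14 had no early end, while PCF11 with 15 had one. Among genes with at least 5 introns 20.3% had an early end. The reference holds transcripts that stop inside an intron for 7 of the 10 genes, with 4 in NUDT21, 4 in CPSF4, 3 in CPSF1 and 2 in CSTF1. Those of these 4 genes include 0 that are complete and coding, whereas CSTF3 has 2 and FIP1L1 has 1. CSTF2, CPSF2 and CPSF3 have 0 such transcripts in the reference. The share of all genes with such reference transcripts was not counted, so the 7 of 10 is a description only.

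**Figure D3:**
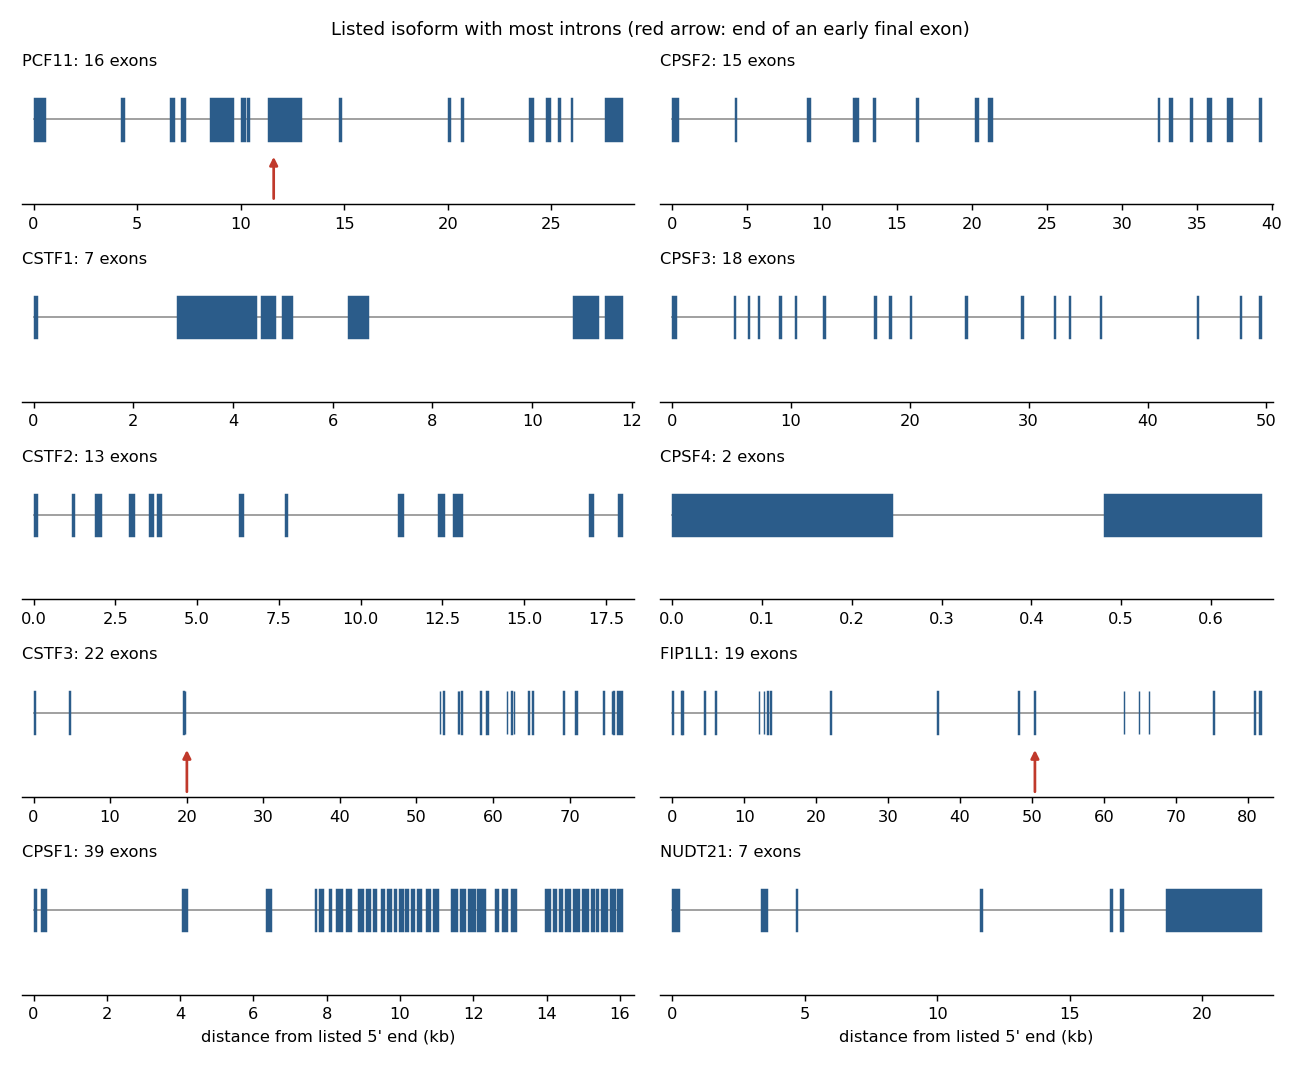
Exons (boxes) and introns (lines) of the listed isoform with the most introns for each of the 10 genes, drawn to scale against the distance from the listed 5′ end in kb. Red arrows mark the early ends of PCF11, CSTF3 and FIP1L1; CSTF3 stops just inside its longest intron, and CPSF4 is listed with 2 exons only.

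FIP1L1 had the most varied listing, with 4 distinct isoforms among 15 over the 10 genes. Besides the early end it had a pair of distal final exons whose acceptors lay 6 bases apart, at chr4:54325469-54325835 (367 bases) and chr4:54325475-54325788 (314 bases). The first of these acceptors also had an end 47 bases earlier, giving 320 bases. The intron of 517 bases before the later acceptor had no reference intron of the same length. The full isoform joined the 45-base exon 2 and the 27-base exon 14. Among 13 reference transcripts 4 had an exon of 45 bases and 3 one of 27, but 0 had both.

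The other CstF genes had no early end, and each differed from the reference in its own way. CSTF1, which encodes the smallest subunit of CstF, was listed at chr20:54967708-54979518 with 7 exons. Its exon 2 was 1591 bases and the following intron 95 bases. They sum to 1686 bases, which equals the 201-base exon 2 and 1485-base intron of the reference, so the listed donor lies 1390 bases further into that intron. At the 3′ end, exons of 507 and 341 bases with an intron of 147 bases between them sum to 995 bases. That is the length of the unspliced last exon of CSTF1-206, a transcript of the nonsense-mediated decay type. The complete coding transcript CSTF1-201 has a last exon of 2902 bases whose stop codon ends at base 260, so the listed end falls short of that exon's end. The first difference moves a splice site and the second adds an intron, and neither is an early end as defined here. CSTF2, which encodes the RNA-binding subunit that contacts the GU-rich element, was listed at chrX:100075349-100093353 with 13 exons. Its chain of 12 introns is the start of CSTF2-201, which goes on across 1 more intron of 2349 bases to a last exon of 205 bases. The missing exon holds 0 coding bases, and the stop codon lies 3 bases before the listed end.

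Among the 4 CPSF genes CPSF3 alone had an intron chain equal to that of a reference transcript. CPSF3 encodes the endonuclease that makes the cut. It was listed at chr2:9563667-9613230 with 18 exons and ended at the 186-base last exon of CPSF3-201. CPSF1, which encodes the largest subunit, was listed at chr8:145618667-145634733 on the minus strand with 39 exons, the most of the 10, and short introns of median length 85.5 bases. The reference transcript CPSF1-212 has 38 exons. Of the 38 listed introns 33 had a reference length. Introns 1 to 4 (151, 3710, 2172 and 1194 bases) and an intron of 344 bases had none. The listed end of CPSF1 stood on a reference internal exon of 139 bases, before a last exon of 135 bases with 48 coding bases. CPSF2, which encodes a catalytically inactive relative of CPSF3, was listed at chr14:92588299-92627590 with 15 exons. It also stopped 1 exon short: the last exon of CPSF2-201, 10494 bases with 93 coding bases, was not listed. CPSF4, which encodes a zinc-finger subunit that helps to recognise the hexamer, was listed by 2 exons of 245 and 175 bases at chr7:99036564-99037219. The reference transcript CPSF4-204 has 8 exons over 18421 bases, and the listed intron of 236 bases is not in it. Both CPSF4 exons lie within an exon of ATP5J2-PTCD1 on the opposite strand (chr7:99036315-99045811, 9497 bases), and the list holds nothing that tells reads of the 2 strands apart. TCP11L1 overlaps the span of CSTF3 and LNX1 that of FIP1L1, also on the opposite strand. Only 4.76% of genes with introns were listed with 1 intron.

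NUDT21 had the simplest listing, with 7 exons at chr16:56463046-56485261 on the minus strand. Its chain of 6 introns equalled that of NUDT21-201. Its last exon of 3600 bases was 1 base shorter than in the reference, the difference seen in 2274 minus-strand last exons (365 equal). That exon made up most of the 4409 exonic bases listed. Intron chains of PCF11, CSTF3 and CPSF3 also equalled a reference transcript, so 4 of 10 genes did, against 27.5% of 11441 genes compared. Over the 10 genes 140 of 149 distinct introns had a reference intron of the same length. The same share over all listed genes was not counted.

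**Figure D4:**
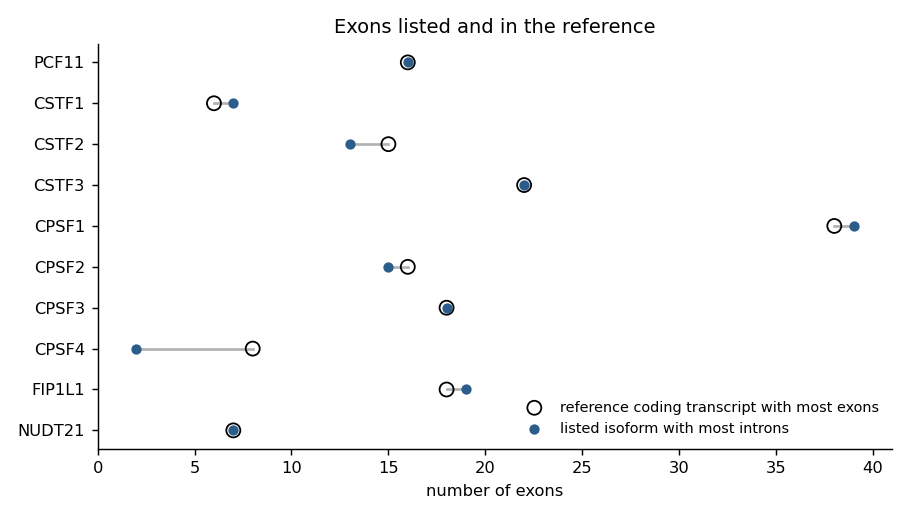
Number of exons in the listed isoform with the most introns (filled points) and in the reference coding transcript with the most exons (open circles) for each gene. The numbers are equal for PCF11, CSTF3, CPSF3 and NUDT21; CPSF4 is listed with 2 exons where the reference has 8.

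The distal ends of CSTF3, CPSF3, FIP1L1 and NUDT21, which matched a reference end, had an AATAAA close by. The last 30 reference bases of these ends are shown with it in capitals.

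CSTF3-201: tcctttaaaaAATAAAaggattcagaaaca
CPSF3-201: aaAATAAAatgcattcgtttctctggggga
FIP1L1-201 (320-base exon): AATAAAagagtgaatttttcatgttaagtt
FIP1L1-202 (367-base exon): ttcaaaAATAAAaagacagcaatgacttta
NUDT21-201: tcatttcAATAAAaaatatttgaaagagaa

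AATAAA ended 14 bases before the end in CSTF3, 22 in CPSF3, 29 and 18 at the 2 ends of FIP1L1, and 17 in NUDT21. An AATAAA stood in the last 40 bases of 45% of 62917 complete coding transcripts, and either hexamer in 55.9%. In the last 40 bases of FIP1L1-207 there were 0 of either. The same window at the early end of CSTF3 also held 0, since its ATTAAA ended 50 bases before the listed end. At the early end of PCF11 the AATAAA lay within the window, 27 bases before the end.

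The listed ends of CSTF2, CPSF1 and CPSF2 lie on exons that are internal in the reference, and in all 3 the last row was repeated. A repeated last row was seen in 3 of the 10 genes, against 25.4% of all genes with introns. A most distal end on a reference internal exon was found for 16.8% of 11441 genes compared. Where the last row of that isoform was repeated, 1876 of 2721 genes (68.9%, 95% Wilson interval 67.2% to 70.7%) ended on such an exon, 1772 of them 1 exon short. Where the last 2 rows overlapped in another way, 45 of 406 did (11.1%, interval 8.39% to 14.5%). Where they did not overlap, 1 of 8314 did (0.0120%, interval 0.00212% to 0.0681%). The intervals cover counting error only. The ends of these 3 genes thus go with a form of row, whose part in the result was not tested. Over all genes with introns, the last 2 rows overlapped in 7514 of 9427 parent names with 1 isoform (79.7%). Among parent names with more isoforms they did so in 29 of 7687 (0.377%). The isoforms of CSTF2, CPSF1 and CPSF2 each stood alone under their parent name. So did the short isoforms of PCF11, CSTF3 and FIP1L1.

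**Figure D5:**
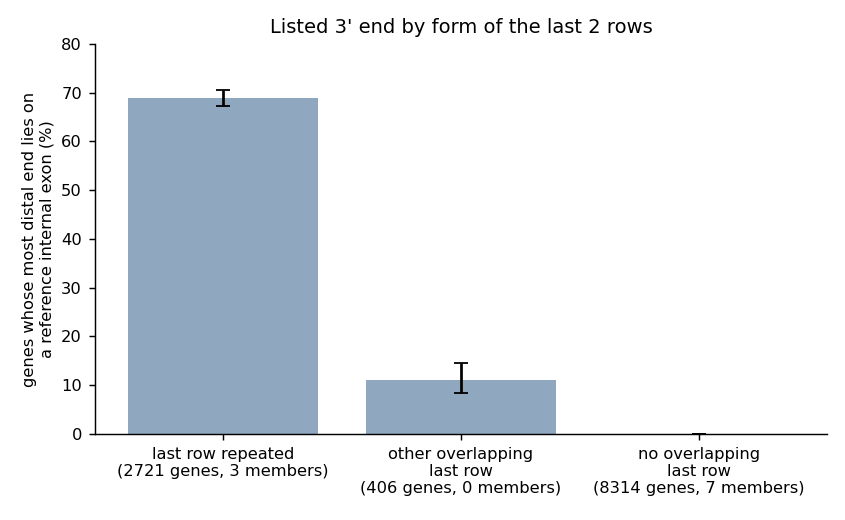
Percentage of compared genes whose most distal listed end lies on an internal exon of the reference, by the form of the last 2 rows; error bars are 95% Wilson intervals. The share is 68.9% for repeated last rows, the form of CSTF2, CPSF1 and CPSF2, and near 0 where the rows do not overlap.

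A list of further factors of 3′ end processing was read in the same way. Of 40 symbols 37 were listed, 35 of them with introns, and 9 of the 35 (25.7%) had an early end, all 9 including an extended exon. The shares over all genes with introns were 16.7% for an early end and 13.4% for an extended exon. Among all genes with at least 5 introns 20.3% had an early end, and the list's median was 16 introns. The other 2, CSTF2T and CLP1, were listed without introns. The poly(A) polymerase gene PAPOLA had 3 final exons, with extensions of 142 bases past exon 7 and 47 bases past exon 9. Like the 38 bases of FIP1L1, the latter is a short run into a longer intron, here of 1841 bases. ZC3H14, which encodes a poly(A)-binding protein, extended exon 9 by 8595 bases. ZC3H3 extended exon 4 by 23248 bases and also had a separate final exon of 450 bases in its intron 4, the 1 separate early exon of the list. CPSF7, which encodes a larger subunit of cleavage factor I, extended exon 11 by 356 bases into an intron of 6233. PABPC1, the cytoplasmic poly(A)-binding protein gene, extended exon 15 by 182 bases. RBBP6 extended exon 4 by 420 bases, the phosphatase gene SSU72 exon 2 by 2427, and the termination factor gene TTF2 exon 7 by 95 bases. The remaining 26 genes with introns had 1 final exon.

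The cell type was checked only by which markers were listed, since a listing is no level. Of 10 markers of glioma lines 8 were listed, among them VIM, CD44 and NES, while SOX2 and GFAP were not. All 4 neuronal markers were listed (4 of 4), with 1 of 4 for each of oligodendrocytes, myeloid cells and endothelium.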

How the data were processed

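Poly(A)-selected RNA of U-87 MG cells was sequenced in 6 libraries, 3 per group. Tools listed in the submitters' processing notes, with no role given, are RSEM, DESeq 1.10.1, STAR 2.4.1d, bedtools 2.20.1 and Bowtie 1.0.1. The builds given there are GRCh37 and hg19. The authors deposited 1 exon annotation of 9 columns, whose start and end positions are the only values used. Expression tables were not analysed here, so depth is unknown and no test was run.

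Rows of one parent name were split into isoforms where their order along the strand restarted. Of 382567 rows, 76 with an end before the start were dropped, leaving 31659 isoforms. The later of overlapping consecutive exons was kept. A gene's isoform with most introns is called its full isoform. Early ends at an internal exon's own end were separated from those inside it after the data were seen. Listed genes on the same chromosome and strand were compared with GENCODE v29 by exon and intron lengths, never by position across builds, with a tolerance of 1 base at outer edges. In plus-strand genes 1501 first exons were 1 base shorter than in the reference and 95 equal. In minus-strand genes 2274 last exons were 1 base shorter and 365 equal. Sequences were read from GENCODE transcripts and were not checked against hg19.

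The 10 genes and the further list were chosen with earlier results of these data known. All 10 were named, and of the further list the 8 with most final exons, ties by symbol. Where a gene had a separate early final exon, like genes were to be named, which applied to 0 of the 10. The code was checked on simulated data built by the same definitions, where each planted form of early end was found. Ends of any other form were not planted. The check covers the code and not whether listed ends are real. Alternatives were the other choice among overlapping exons, ends counted with acceptors, isoforms split at parent names only, the longest span as full isoform, genes with at least 5 introns and, added after the data were seen, ends at incomplete reference transcripts left out and intron length alone. Python 3.11.15, numpy 2.4.6, scipy 1.17.1 and matplotlib 3.10.9 were used.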

Additional observations from a re-analysis of the deposited data

How the results depend on the processing

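The count of 3 genes with an early end was the same with ends told apart by acceptor and 3′ end. It was also the same with isoforms split at parent names only and with the longest span as full isoform. Keeping the earlier overlapping row could not change this count, since each short isoform then still ended at its internal exon. The count was 2 with ends equal to an incomplete reference transcript left out, which drops PCF11. The 2 early ends inside an intron fell to 0 when the earlier of overlapping rows was kept, since that choice removes the longer row in both CSTF3 and FIP1L1. It also removes the shorter row of PCF11, so all 3 listed ends were replaced by the internal exon's own end. The total of 14 final exons was 15 with ends told apart by acceptor and 3′ end, and 13 with isoforms split at parent names only. The share of all genes with at least 2 final exons, 22.5%, was 38.6% and 17.7% under these settings. The share of all genes with an early end, 16.7%, was 20.3% among genes with at least 5 introns and stayed between 16.5% and 17.1% otherwise. The 3 genes ending on a reference internal exon remained 3 with intron length alone matched. No paired analysis was possible because 0 columns of the list belong to single libraries. For the same reason no replicate could be left out. How many reads lie behind any listed end is unknown, and an end not listed here is not shown to be unused in these cells.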
